A study of Mus musculus with 6 samples.

Results

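Distal convoluted tubule and WNK genes were followed in whole kidneys of mice with and without a deletion of the transferrin receptor in the nephron lineage. The group held 10 of the 24422 counted genes, taken by symbol: the thiazide-sensitive cotransporter gene Slc12a3, Pvalb, Tmem52b, Trpm6, Cnnm2, Wnk1, Wnk4, Stk39, Klhl3 and Kcnj10. All 10 were counted and tested. RNA was from 3 Control kidneys, labelled wild type, and 3 TfR1 knockout kidneys, labelled Tfr1f/f;SixCre in the genotype field and TfR1KO;Six2Cre in the title. All kidneys were from C57BL/6 mice at postnatal day 13, on a diet with 220 ppm iron. Six2Cre acts in the progenitors of the nephron, which give rise to the distal convoluted tubule, whereas the collecting duct has another origin. The knockout allele is described as floxed at exons 3 and 4 of Tfrc, and the study describes cells that apparently escaped the deletion. The design text calls the samples biological replicates. It does not give litters, and the sex of each animal was not used. The study describes its sequencing controls as wild type littermates, but which kidneys shared a litter is not given in the sources used here.

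The distal convoluted tubule is the short nephron segment after the thick ascending limb, where NaCl enters the cell through the thiazide-sensitive cotransporter NCC (Slc12a3). WNK kinases activate SPAK (Stk39), which phosphorylates NCC, and the KLHL3 ubiquitin ligase adaptor targets WNK kinases for degradation. A basolateral potassium channel built from Kcnj10 sets the chloride level to which WNK4 responds, and the same segment reclaims magnesium through the apical channel Trpm6. Loss of NCC in humans causes Gitelman syndrome, a salt-losing tubulopathy with low magnesium, and gain of WNK activity causes familial hyperkalemic hypertension.

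Total counts ran from 16591156 to 22898008 per library. Control replicate 3, the shallowest library, stood apart from the other Control kidneys. It had the lowest normalized count of the Control libraries for 10 of 10 genes of the group, against 43.9% of all 16509 tested genes. Its level was between 38.4% (Cnnm2) and 84.5% (Tmem52b) of the mean of Control replicates 1 and 2. Its summed stroma markers were 1.46 times, and its endothelium markers 1.37 times, the Control mean. The low level was not particular to the group. Its summed thick ascending limb markers were 0.57 and its proximal tubule markers 0.61 of the Control mean, against 0.72 for the 10 genes. The part of these differences in the results was not tested, and values without this library are given where they changed the call of a member. The targeted gene, Tfrc, had normalized counts of 5534, 6485 and 3667 in Control and 6976, 4045 and 5898 in knockout kidneys. The groups overlapped, with a log2 fold change of 0.11 (SE 0.29, DESeq2 adjusted p 0.853), and its sign was negative without Control replicate 3 (-0.09) or without TfR1 knockout replicate 1 (-0.07). The group labels were therefore not checked by Tfrc.

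Promoter stretches of 3 members are shown because their results and their promoter letters are unlike: Slc12a3 fell most of the NCC regulatory set, Wnk1 fell less, and the change of Wnk4 did not pass the test. They are the 110 bases before the RefSeq start site, on the gene's strand, in GRCm38.p6 and not in the mm9 build of the counts. Capitals mark TATAAA (the TATA box) and GGGCGG or its reverse complement CCGCCC (the GC box). The positions are chr8:94329098-94329207 (+) for Slc12a3, chr6:120038656-120038765 (-) for Wnk1 and chr11:101260457-101260566 (+) for Wnk4.
Slc12a3: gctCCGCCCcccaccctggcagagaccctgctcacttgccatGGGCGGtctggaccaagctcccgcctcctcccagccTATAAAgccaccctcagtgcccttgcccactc
Wnk1: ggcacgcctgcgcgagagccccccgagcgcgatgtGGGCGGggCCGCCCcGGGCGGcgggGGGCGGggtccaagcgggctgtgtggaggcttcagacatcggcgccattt
Wnk4: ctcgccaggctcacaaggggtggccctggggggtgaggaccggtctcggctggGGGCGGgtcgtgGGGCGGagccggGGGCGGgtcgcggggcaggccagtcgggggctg
The Slc12a3 stretch has a TATA box that begins 32 bases before the start site, and no other member's 300-base window (250 bases before to 50 after the start) held these letters. Of 32851 RefSeq windows of the same length, 13.6% held TATAAA and 35.7% held a GC box on either strand. The Slc12a3 window had 4 CG pairs, the Wnk1 window 32, the Wnk4 window 21 and the Stk39 window 49, where the median of all windows was 7. The other windows had 2 (Tmem52b), 5 and 25 (Pvalb), 8 (Klhl3), 9 (Trpm6) and 21 (Kcnj10 and Cnnm2). CG pairs did not sort the members by their calls: Tmem52b, with the fewest, did not pass, and Kcnj10 passed with as many as Wnk4. A link between promoter letters and the changes was not tested. All 10 members had a RefSeq window. AGAACA, a motif of steroid receptors held by 19% of windows on either strand, was found in Kcnj10 and in the second of 2 Pvalb windows. Wnk1 also has an internal promoter for a kidney-specific form that lacks the kinase domain, and that promoter was not used here.

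In TfR1 knockout kidneys 6 of the 10 genes were lower: Pvalb, Slc12a3, Trpm6, Kcnj10, Klhl3 and Wnk1, by between 2.13 and 85.6 times. All 6 also passed a 2-fold threshold. The other 4 genes, Cnnm2, Tmem52b, Wnk4 and Stk39, did not pass, and 0 members were higher. Over all 16509 genes tested, 7.18% were lower and 7.74% higher at an adjusted p under 0.05 (DESeq2 Wald test), and 4.46% were lower by at least 2-fold. edgeR's quasi-likelihood test, which called 2.8% of its genes lower, called 5 members lower and lost Kcnj10. It called 0 members higher, and 1 member, Stk39, was higher at an unadjusted DESeq2 p under 0.05. The median log2 fold change of the 10 genes was -1.12, against 0.007 over all genes tested. In whole kidney RNA, fewer cells of a type and less RNA per cell cannot be told apart.

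**Figure D1:**
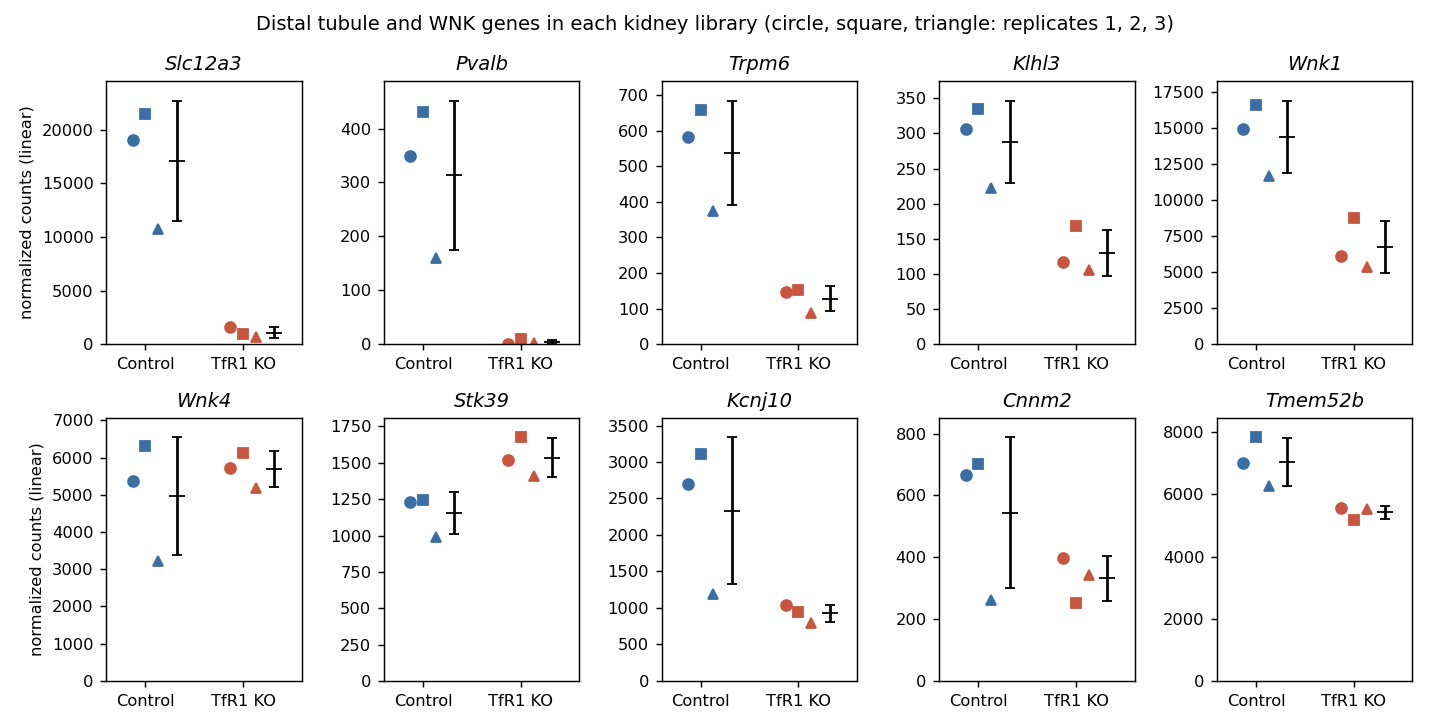
Normalized counts (linear axes from 0, one panel per gene) in 3 Control and 3 TfR1 knockout libraries; symbols are libraries and bars the mean with its SD. The groups are apart for 8 genes and overlap for Wnk4 and Cnnm2, and Control replicate 3 (triangle) is the lowest Control library in every panel.

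**Figure D2:**
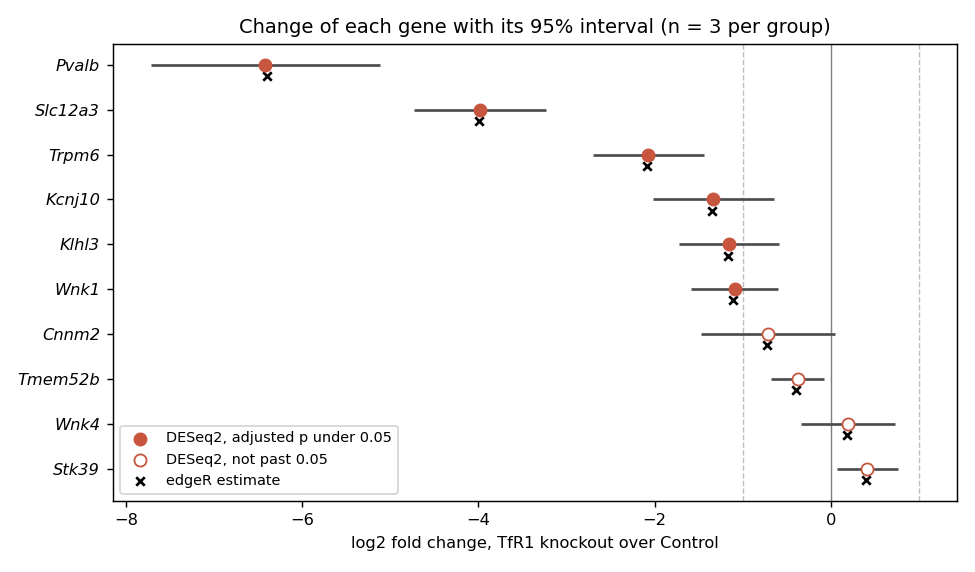
Log2 fold change of knockout over Control for each gene, with the 95% interval of the DESeq2 estimate (lines), filled points for an adjusted p under 0.05, open points otherwise, crosses for the edgeR estimate and dashed lines at 2-fold. The estimates run from -6.42 (Pvalb) to 0.41 (Stk39), and the Pvalb and Slc12a3 intervals lie below those of Kcnj10, Klhl3 and Wnk1.

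Genes that define the segment came first. Slc12a3 (chr8:96853092-96890113 in mm9) encodes NCC itself. It had 19064, 21440 and 10736 normalized counts in Control kidneys and 1636, 961 and 646 in knockout kidneys. Every knockout library lay far below the lowest Control library. The mean fell from 17080±5621 to 1081±506 (mean±SD; No.=3 each), a log2 fold change of -3.98 (SE 0.38, 95% interval -4.73 to -3.23, DESeq2 adjusted p 1.19e-22, edgeR adjusted p 0.00505), or 15.8 times lower.

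Pvalb (chr15:78021544-78036830) encodes parvalbumin, a cytosolic calcium-binding protein of the early distal convoluted tubule and of fast muscle fibers. Its normalized counts were 349, 431 and 160 in Control kidneys and 0.994, 8.96 and 1.89 in knockout kidneys. The knockout values rest on 1, 7 and 2 reads, so the transcript was close to the limit of counting in all 3. The log2 fold change was -6.42 (SE 0.66, interval -7.72 to -5.12, DESeq2 adjusted p 1.03e-19). Over pooled reads, 1046 in Control and 10 in knockout, the scaled ratio was 91.8 with an exact Poisson 95% interval of 49.7 to 192, which covers counting error only. Without TfR1 knockout replicate 2, which held 7 of the 10 reads, the log2 fold change was -7.75. Because muscle also makes parvalbumin, 8 skeletal muscle markers were read beside it. Their summed counts were 66.0 to 183 in Control and 85.7 to 209 in knockout kidneys, and 0 of the 6 that DESeq2 tested and 0 of the 5 that edgeR tested passed, also at an unadjusted p under 0.05. The highest Control sum was in replicate 3, where Pvalb was lowest among the Controls.

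Tmem52b (chr6:129462575-129469245) encodes a membrane protein found in the distal tubule. It had 7017, 7839 and 6274 normalized counts in Control and 5549, 5192 and 5517 in knockout kidneys. The groups did not overlap, but the difference was small, with a log2 fold change of -0.38 (SE 0.15, interval -0.68 to -0.08), and did not pass (DESeq2 adjusted p 0.0743, edgeR 0.149). It passed with total-count scaling (-0.48, adjusted p 0.0295), with upper-quartile scaling (-0.42, adjusted p 0.0238) and without Control replicate 3 (-0.46, adjusted p 0.0175). Over all genes tested the median log2 fold change was -0.098 with total-count and -0.045 with upper-quartile scaling, against 0.007 in the main fit.

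Magnesium channel and exit genes were compared next. Trpm6 (chr19:18824473-18967000) encodes the apical magnesium channel of the segment. Its normalized counts were 582, 658 and 376 in Control and 146, 151 and 88.0 in knockout kidneys, without overlap. The log2 fold change was -2.07 (SE 0.32, interval -2.70 to -1.44, DESeq2 adjusted p 8.77e-09, edgeR 0.0123), or 4.21 times lower. Cnnm2 (chr19:46836086-46953285), a basolateral protein needed for magnesium balance, had 666, 703 and 263 in Control and 399, 253 and 342 in knockout kidneys. Control replicate 3 fell among the knockout libraries, and the log2 fold change of -0.71 (SE 0.39, interval -1.48 to 0.05) did not pass (DESeq2 adjusted p 0.219, edgeR 0.262). Without that library it was -1.05 (SE 0.26, DESeq2 adjusted p 0.001), so the call for Cnnm2 rests on whether Control replicate 3 is kept.

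Within the WNK cascade, Wnk1 and Klhl3 passed the test, and Wnk4 and Stk39 did not. Wnk1 (chr6:119873987-119988690) had 14894, 16621 and 11695 normalized counts in Control and 6106, 8763 and 5375 in knockout kidneys, without overlap. Its log2 fold change was -1.09 (SE 0.25, interval -1.59 to -0.60, DESeq2 adjusted p 0.000322, edgeR 0.0393), or 2.13 times lower. The gene count sums the full-length and the kidney-specific forms of Wnk1, which were not separated here. Wnk4 (chr11:101121881-101138723), the WNK kinase most tied to NCC control, had 5371, 6299 and 3208 in Control and 5731, 6135 and 5172 in knockout kidneys. The knockout values lay inside the Control range. Its log2 fold change was 0.20 (SE 0.27, interval -0.34 to 0.73, DESeq2 adjusted p 0.692, edgeR 0.669), and without Control replicate 3 it was -0.04. The interval leaves out a fall of the size seen for Wnk1, although it does not show that Wnk4 was the same in both groups. Exons of Wnk4 share 306 bases with the antisense gene Gm11615, and whether the counting used strand is not given in the sources used here.

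Stk39 (chr2:68048502-68310325) encodes SPAK, the kinase between the WNKs and NCC. It had 1231, 1244 and 988 normalized counts in Control and 1520, 1676 and 1412 in knockout kidneys. Every knockout library was above every Control library, yet the log2 fold change of 0.41 (SE 0.18, interval 0.06 to 0.76) did not pass (DESeq2 adjusted p 0.099, edgeR 0.13). Across all genes tested 33.7% had groups that did not overlap in either direction, and 8 of the 10 genes of the group did so. Klhl3 (chr13:58024533-58214953), the adaptor that brings WNK kinases to the CUL3 ligase, had 307, 335 and 223 in Control and 117, 168 and 106 in knockout kidneys. It was 2.22 times lower, with a log2 fold change of -1.15 (SE 0.29, interval -1.72 to -0.59, DESeq2 adjusted p 0.00126, edgeR 0.0458).

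Kcnj10 (chr1:174271341-174304216) encodes the basolateral potassium channel subunit Kir4.1. Its normalized counts were 2699, 3106 and 1196 in Control and 1035, 944 and 798 in knockout kidneys. The groups did not overlap, but Control replicate 3 came near the highest knockout library. The log2 fold change was -1.33 (SE 0.35, interval -2.02 to -0.65, DESeq2 adjusted p 0.00213), and it missed the threshold in edgeR (adjusted p 0.0566) and limma-voom (adjusted p 0.0759). Without Control replicate 3 it was -1.65 (DESeq2 adjusted p 1.28e-14).

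Levels between genes were compared per exon length, in TPM, the share of all length-scaled counts of a library, computed from the counts. In Control kidneys Slc12a3 was the highest of the group at 751±225 TPM, followed by Tmem52b (358±26.6), Wnk4 (174±50.2) and Wnk1 (137±18.9). Kcnj10 (62.6±25.4), Pvalb (43.6±18.1), Stk39 (34.1±3.20) and Cnnm2 (22.2±9.46) came next, and Klhl3 (12.9±2.20) and Trpm6 (12.1±2.89) were lowest. Neighbors in this order overlapped in their mean±SD ranges except at 3 steps, Slc12a3 to Tmem52b, Tmem52b to Wnk4 and Wnk1 to Kcnj10. In knockout kidneys Tmem52b (267±36.1 TPM) and Wnk4 (192±8.60) led, and Wnk1 (60.7±9.24) and Slc12a3 (46.1±22.8) followed with overlapping ranges. Pvalb had the lowest level, 0.497±0.505 TPM. NCC thus moved from the most abundant transcript of the group to a level near that of Stk39 (43.5±1.25).

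To set the genes against their segment, each count was divided by that of Slc12a3 in the same library, which cancels the scaling between libraries. The ratio was higher in every knockout library than in every Control library for 8 of the 9 other members. Since Slc12a3 fell, 97.3% of all genes did the same, so these 8 do not stand out from the background. Pvalb went the other way. Its log2 ratio to Slc12a3 was -5.82±0.22 in Control and -8.28±1.73 in knockout kidneys, lower in every knockout library, as for 0.0606% of genes (10 of 16508). These knockout ratios rest on 1, 7 and 2 Pvalb reads, close to the limit of counting. The nearest values were -6.65 in TfR1 knockout replicate 2, with 7 reads, and -6.06 in Control replicate 3. Whether that gap exceeds counting error was not tested. The size of the rise in log2 ratio differed among the rest. It was 1.96 for Trpm6, 2.80 for Kcnj10, 2.88 for Klhl3, 2.91 for Wnk1, 3.42 for Cnnm2, 3.65 for Tmem52b, 4.27 for Wnk4 and 4.44 for Stk39. With 3 libraries against 3, an exact two-sided permutation test cannot go below 0.1, which was its value for all 9 genes.

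Ratios of related genes, per exon length and chosen after the values were seen, described the same libraries without scaling. Wnk1 over Wnk4 was 0.747, 0.711 and 0.982 in Control and 0.287, 0.385 and 0.280 in knockout kidneys. Kcnj10 over Kcnj16, its partner subunit in the basolateral channel, was 0.231, 0.237 and 0.122 in Control and 0.0844, 0.0674 and 0.0668 in knockout kidneys. Trpm6 over Trpm7, the widely expressed relative of Trpm6, was 0.292, 0.307 and 0.144 in Control and 0.0867, 0.0507 and 0.0357 in knockout kidneys. In each of these pairs the knockout libraries lay below all Control libraries. Slc12a3 over Slc12a1, the cotransporter of the thick ascending limb, was 0.976, 1.03 and 0.958 in Control and 0.269, 0.0879 and 0.116 in knockout kidneys. This ratio was tight in Control kidneys, replicate 3 included. Slc12a3 over Umod, the uromodulin gene of the thick ascending limb, was 0.317, 0.319 and 0.356 in Control and 0.305, 0.185 and 0.327 in knockout kidneys, and these groups overlapped (exact permutation p 0.3, 2-sided). For the other 4 ratios the exact permutation p was 0.1, the smallest possible. Because the pairs were picked with the values known, these p-values only describe the libraries and do not test the ratios.

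**Figure D3:**
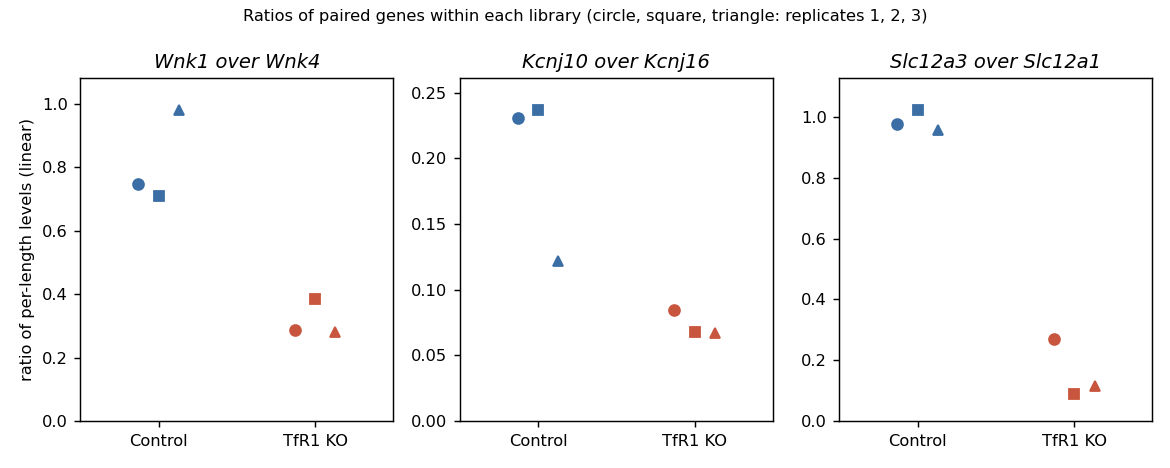
Ratio of 2 genes per exon length (linear axes from 0) in each Control and TfR1 knockout library, one panel per pair. The pairs drawn are Wnk1 over Wnk4, Kcnj10 over Kcnj16 and Slc12a3 over Slc12a1. Each drawn ratio is lower in all 3 knockout libraries than in any Control library, and the pairs were chosen after the values were seen. Trpm6 over Trpm7 is not drawn, nor is Slc12a3 over Umod, for which the groups overlapped.

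Of 15 other genes of the WNK and SPAK pathway, 2 were lower, 2 were higher and 11 did not pass (median log2 fold change 0.17). edgeR called 1 lower and 1 higher. Over all genes tested, DESeq2 called 7.18% lower and 7.74% higher, and edgeR called 2.8% lower. The list is short, and no set test was run on it. Ppp1r1a, an inhibitor of protein phosphatase 1 enriched in distal tubules, had 3378±1075 normalized counts in Control and fell to 918±203 (log2 fold change of -1.88 with SE 0.30, DESeq2 adjusted p 3.37e-08, edgeR 0.0131). Slc12a1 was lower by 2.29 times (-1.19, SE 0.34, DESeq2 adjusted p 0.00617), but missed the threshold in edgeR (0.0854) and whenever replicate 1 or 2 of the Control kidneys, or the third knockout kidney, was left out. Slc12a2, the widely expressed sodium, potassium and chloride cotransporter that SPAK also activates, rose from 1643±164 to 3169±725 (0.95, SE 0.22, DESeq2 adjusted p 0.000498, edgeR 0.0342). Sgk1, an aldosterone-induced kinase, rose from 7942±1259 to 13396±4003 (0.75, SE 0.26, DESeq2 adjusted p 0.0312). That call was lost in edgeR (0.117) and when any 1 library other than TfR1 knockout replicate 1 was left out. Oxsr1, the SPAK relative OSR1, had a log2 fold change of 0.26 (interval -0.07 to 0.58) and Cul3, the ligase scaffold that holds KLHL3, of 0.17 (interval -0.16 to 0.49).

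Among 21 other magnesium handling genes, 4 were lower, 2 were higher and 15 did not pass (median 0.13), and edgeR called 3 lower and 1 higher. Egf, whose product stimulates Trpm6, had 14570, 18708 and 2314 normalized counts in Control and 559, 622 and 152 in knockout kidneys. Its Control values spread widely, and the log2 fold change was -4.74 (SE 0.94, DESeq2 adjusted p 1.99e-05, edgeR 0.0263). Cldn16 (-1.52, SE 0.18, DESeq2 adjusted p 4.71e-15) and Cldn19 (-1.47, SE 0.37, DESeq2 adjusted p 0.00124, edgeR 0.0554) encode the claudins of the paracellular magnesium route in the thick ascending limb. Pcbd1, a transcriptional cofactor gene, fell by 0.89 on the log2 scale (SE 0.18, DESeq2 adjusted p 3.37e-05). Slc41a2, a magnesium transporter gene, rose from 90.4±26.0 to 244±56.9 normalized counts (by 1.43 on the log2 scale, SE 0.32, DESeq2 adjusted p 0.000181). Rragd, a GTPase of amino acid sensing, was the other higher gene (0.63, SE 0.23, DESeq2 adjusted p 0.0417), and lost its call in edgeR (0.1) and when any 1 library other than Control replicate 2 was left out. Trpm7 had a log2 fold change of 0.08 (interval -0.42 to 0.58) and Kcnj16 of 0.14 (interval -0.20 to 0.49). Both intervals leave out the fall seen for their relatives Trpm6 and Kcnj10.

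Basolateral exit genes and transcription factors of the distal nephron were read for the same cells. Of 10 basolateral genes 2 were lower in DESeq2, and 1 in edgeR or without Control replicate 3. Bsnd, the chloride channel subunit barttin, fell by 1.07 on the log2 scale (SE 0.26, DESeq2 adjusted p 0.000675, edgeR 0.0379). Atp2b4, a plasma membrane calcium pump, fell by 0.47 (SE 0.15, DESeq2 adjusted p 0.0187, edgeR 0.0656), a call lost when any 1 library other than TfR1 knockout replicate 1 was left out. Of 10 transcription factor genes 4 were lower in DESeq2, 2 in edgeR and 6 in DESeq2 without Control replicate 3, and the median was -0.64. For both lists, the share of all genes called lower without that library is not given here. Sall3 fell by 2.16 on the log2 scale (DESeq2 adjusted p 2.81e-07, edgeR 0.0148) and Emx1 by 1.81 (DESeq2 adjusted p 6.77e-05, edgeR 0.036). Esrrb (-1.83, DESeq2 adjusted p 0.000776) and Irx1 (-1.14, DESeq2 adjusted p 0.0132) passed in DESeq2 and not in edgeR (0.0552 and 0.0835). Irx1 also lost its call without replicate 1 or 2 of the Control kidneys or the third knockout kidney.

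Several marker lists of other kidney cells also changed, some lower and some higher. Of 10 thick ascending limb markers 8 were lower (6 in edgeR), with a median log2 fold change of -1.49, and their summed level was 0.17 to 0.30 of the Control mean in knockout kidneys. Slc12a1, Egf, Cldn16 and Cldn19 are also in the pathway and magnesium lists above, so their falls are counted in both places. The sum of all 10 genes of the group was 0.40 to 0.50 of the Control mean, above that of the thick ascending limb. In knockout kidneys the largest parts of this 10-gene sum were Wnk1, Wnk4 and Tmem52b. Their mean normalized counts were 6748, 5679 and 5419, against 1081 for Slc12a3, so the sum does not follow Slc12a3. The sum of Slc12a3, Pvalb and Trpm6, the members with the largest falls, was 0.041 to 0.099, which follows from their choice. Umod fell by 3.65 on the log2 scale (SE 0.42, DESeq2 adjusted p 1.16e-15), close to Slc12a3. Of 11 connecting tubule and collecting duct markers, 5 were higher and 1 was lower (median 0.23), against 2 higher and 0 lower in edgeR, where 6 of the list passed at an unadjusted p. Aqp2, the vasopressin-regulated water channel of the collecting duct, rose by 2.74 (SE 0.44, DESeq2 adjusted p 4.92e-08), and S100g, the calcium-binding protein calbindin-D9k, fell by 1.06 (SE 0.29, DESeq2 adjusted p 0.00322, edgeR 0.0598). Of 12 proximal tubule markers 4 were lower and 1 was higher (median -0.70), and edgeR called 2 lower and 1 higher. Slc5a2, the glucose cotransporter of the early proximal tubule, fell by 5.12 on the log2 scale (SE 0.37, DESeq2 adjusted p 6.69e-40, edgeR 0.0021). Slc22a6, an organic anion transporter gene, went against its list and rose by 1.79 (SE 0.39, DESeq2 adjusted p 0.000105, edgeR 0.0441). Of 5 podocyte markers 1 was higher by both tools. Of 8 macrophage markers 5 were higher (4 in edgeR), with sums of 2623 to 4218 normalized counts in Control and 6069 to 9078 in knockout kidneys. Of 7 stroma markers 2 were lower in DESeq2 and 0 in edgeR, where 2 passed at an unadjusted p. Of 5 endothelium markers 0 passed in DESeq2 or edgeR, also at an unadjusted p under 0.05. The part of these shifts in the values of the distal convoluted tubule genes was not tested.

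**Figure D4:**
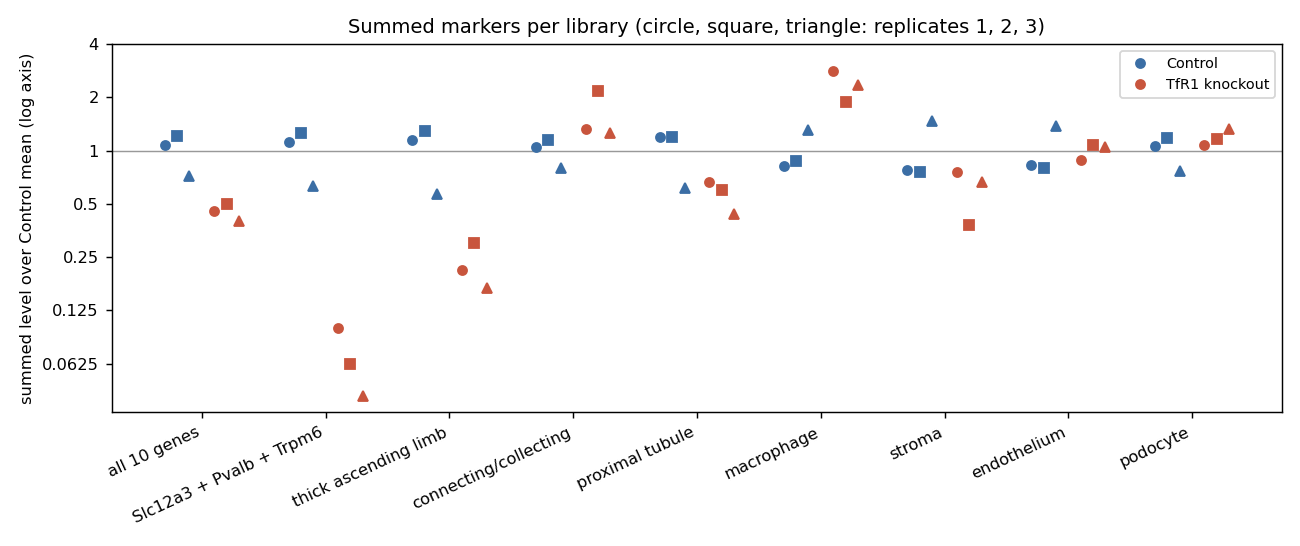
Summed normalized counts of the 10 genes, of 3 of them and of each marker list over the mean of the 3 Control libraries (log axis), per library. In knockout kidneys all 10 genes together lie at 0.40 to 0.50, Slc12a3, Pvalb and Trpm6, which fell most, at 0.041 to 0.099, thick ascending limb markers at 0.17 to 0.30 and macrophage markers at 1.89 to 2.83.

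Among 12104 genes outside the group whose mean normalized count reached 100, those most like Slc12a3 over the 6 libraries included Prkcq (Pearson r 0.999 of log2 of normalized count plus 1), Bbs2 (0.999), Slc34a3 (0.998) and Rpa1 (0.997). These values describe 6 libraries in 2 groups that share one difference, so they mostly restate the gap between the groups. The genes differed in the size of the change. Slc34a3, the renal sodium phosphate cotransporter NaPi-IIc, had 709.9, 614 and 332 normalized counts in Control and 26.8, 15.4 and 9.46 in knockout kidneys (log2 fold change -5.00), whereas Rpa1 had 1621, 1624 and 1485 in Control and 1258, 1192 and 1121 in knockout kidneys (-0.41).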

How the data were processed

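Poly-A RNA of 6 whole mouse kidneys (3 Control, 3 TfR1 knockout) was sequenced as single-end reads. Per the labels and methods, the authors ran CASAVA 1.8.2, trimmed reads with Trimmomatic, aligned them with TopHat2 2.0.11 to mm9, and deposited raw counts of uniquely aligned reads per gene (HTSeq) that were not normalized. Versions of HTSeq and Trimmomatic and the strand setting of the counting are not given in the sources used here. Reads that fit several genes are not in the counts.

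Columns were matched to samples by label. The test followed the study: DESeq2 1.42.0 (R 4.3.3), Wald test on raw counts, median-ratio size factors, Benjamini-Hochberg adjustment over 16509 genes, threshold 0.05, no covariate. Normalized counts are raw counts over size factors. Exon-union lengths came from GENCODE M1 (mm9). Ratios used a pseudocount of 0.5. No pair of libraries agreed within counting noise. Replicate numbers were not taken to pair samples. Code was tested on simulated data.

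The genes and lists were chosen with earlier results of these data known. Named genes were all members, Tfrc, up to 4 genes per list past the threshold, by size of change, and any going against their list, and the 5 genes most correlated with Slc12a3, of which 1 is not reported here. Oxsr1, Cul3, Trpm7 and Kcnj16 were named after their values were seen, as partners or relatives of members. Alternatives were edgeR 4.0.16, limma 3.58.1 with voom, other size factors and filters, a replicate block, and leaving out each library.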

Additional observations from a re-analysis of the deposited data

How the results depend on the processing

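Members lower numbered 6 with DESeq2 and with the replicate block, 5 with edgeR and limma-voom, 7 with total-count or upper-quartile scaling, and 6 to 8 with each library left out. The share of all genes called is given here for the full DESeq2 fit and, for lower genes, edgeR, but not for the other settings. The labels give no pairing beyond a shared number, same-numbered libraries did not deviate together (r -0.04, 0.05 and 0.09), and 3 of 6 libraries correlated best with their own number. The block kept the call of each member, and of basolateral genes it called 1 lower and 1 higher. The Wnk4 log2 fold change ran from -0.042 to 0.40 with 1 library left out, and that of Tfrc from -0.095 to 0.30 (-0.072 without TfR1 knockout replicate 1). For other WNK and SPAK pathway genes, 1 was lower and 1 higher with edgeR and limma-voom, and 1 to 2 lower and 1 to 3 higher with 1 library left out. For other magnesium handling genes, 1 was higher with edgeR, limma-voom, TMM or total-count scaling and no filter on low counts, and 1 to 2 with 1 library left out. Of proximal tubule markers, 7 were lower without Control replicate 3. The causes were not tested. Of the alternative fold changes of members and Tfrc, 156 kept direction and call, 4 gained a call, 2 lost it and 3 changed sign, and 70 values for ratios to Slc12a3 moved by less than the spread between replicates or kept their direction. Whether precision is limited more by the 3 libraries per group or by depth was not tested, and Pvalb had few reads in knockout kidneys.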
